A study of Medicago ruthenica with 3 samples.

Results

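Leaves of Medicago ruthenica, a perennial forage legume that tolerates dry and cold sites, were compared between drought-stressed seedlings (DS) and watered control seedlings (CK) at the level of RNA decay fragments. The members were all transcripts with degradome reads in either library: 5534 of the 6912 transcripts in the table, carried by 8765 of its 11390 entries, an entry being a small RNA paired with a transcript. Of these, 928 transcripts with 10 or more reads over both libraries were compared. Both groups were seedlings, 4 weeks old when treatment began and grown 8 to a pot in vermiculite and quartz sand without added nutrients. CK plants were watered every 3 days, which kept relative soil moisture above 80%, and DS plants had no water for 15 days, which brought it to 20%. Leaves of both groups were taken on the same day. The study had 3 biological replicates per treatment but 1 degradome library per condition, and whether RNA of several plants was pooled for a library is not stated in the sources used here. None of the differences below therefore has a replicate check, and every interval covers counting error only.

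A degradome library captures the 5′ ends of polyadenylated RNA that has lost its cap. Such ends arise when a small RNA guides the cutting of its target and also when a messenger is decapped and degraded from its 5′ end, so messengers that are abundant or quickly turned over leave many of them. The table lists only ends that fall at a predicted small RNA site. Under drought, plants make abscisic acid, a hormone that closes stomata and turns on protective genes, they accumulate dehydrins and chaperones that shield proteins and membranes, and leaf growth and photosynthesis slow down. More RNA, faster decay and more small RNA cutting of a transcript cannot be told apart in these libraries, nor can fewer cells of a type and less RNA per cell.

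The CK library held 24790 reads and the DS library 32719, and 1 read was worth 40.3 RPM (reads per 1000000 reads of the table) in CK and 30.6 in DS. A transcript with no read could therefore have stood at up to 121 RPM in CK and 91.7 RPM in DS. The 2640 entries seen in both libraries (30.1% of the entries) carried 82.2% of the CK reads and 77.1% of the DS reads. At the level of transcripts, 2275 were seen in both libraries, 1315 in CK only and 1944 in DS only. No transcript confined to CK had more than 13 reads, whereas the deepest one confined to DS had 39. The 928 compared transcripts held 78.5% of the CK reads and 77.6% of the DS reads, and the threshold fell in a crowded range, with 79 transcripts at 9 reads just outside it and 75 at 10 reads just inside.

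The only sequences in the sources used here are the primers with which the study amplified chosen transcripts. Those of 3 transcripts that differed between the libraries are given, 5′ to 3′. They mark the assembled RNAs behind a mitochondrial carrier and a type 2C phosphatase with more reads in DS, and a Calvin cycle regulator with fewer. They are plain lower-case runs without marked positions.
PUMP5 (TRINITY_DN21990_c1_g1) forward: ggttttgttgaaggtggtat
PUMP5 (TRINITY_DN21990_c1_g1) reverse: gctgaggaaccggagtagac
At2g30020 (TRINITY_DN22423_c0_g2) forward: cgccttctccttgttctt
At2g30020 (TRINITY_DN22423_c0_g2) reverse: gcctggtaggtcgtttcc
CP12-2 (TRINITY_DN21723_c1_g3) forward: accccaagcttctcttcaac
CP12-2 (TRINITY_DN21723_c1_g3) reverse: ctgggtcatcagcacatgtc

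A transcript was called higher or lower in DS when its ratio of RPM was at least 2-fold and the exact 95% counting interval of that ratio excluded 1. Of the 928 compared transcripts, 139 (15.0%) were higher, 105 (11.3%) were lower and 684 were not called. A further 196 transcripts differed by 2-fold or more but had an interval that included 1, and 27 had an interval that excluded 1 but differed by less than 2-fold. Of the higher transcripts 26 had no read in CK, and of the lower ones 3 had none in DS. On the log2 scale the ratios had a median of 0.09, and the central 80% of transcripts lay between -1.49 and 1.88.

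These counts depend on what the libraries are scaled to. The table totals were used as the main scaling. Scaling by the reads that mapped to the transcriptome multiplied every ratio by 1.45, moved the median by 0.54 on the log2 scale and gave 268 higher and 48 lower transcripts, so that 84.8% of calls were higher in place of 57.0%. Without scaling there were 230 higher and 61 lower transcripts (79.0% higher, a shift of 0.40), and scaling by the median of ratios gave 129 and 121 (51.6% higher). Under all 4 scalings alike 129 transcripts (13.9%) were higher and 48 (5.17%) lower, and for the gene groups below the number that held under all 4 is given beside the count by table totals. At the level of single entries, 158 of 889 compared (17.8%) were higher and 118 (13.3%) lower.

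**Figure D1:**
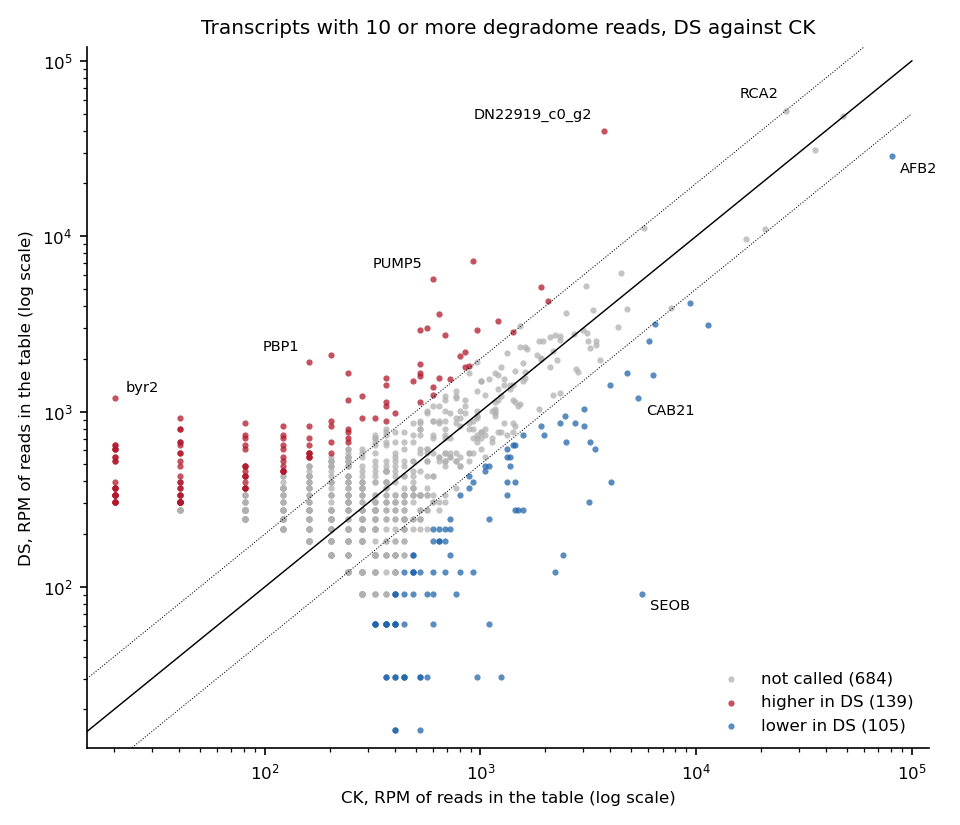
Each point is 1 of the 928 compared transcripts, with its RPM in CK on the x axis and in DS on the y axis, both on log scales. The solid line marks equal values and the dotted lines a 2-fold difference, and a library with 0 reads is drawn at the value of 0.5 of a read. The 139 higher transcripts lie mostly at low CK values, DN22919_c0_g2 and PUMP5 stand far above the line, and SEOB lies farthest below it.

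The transcripts with the most reads went different ways. AFB2, an F-box auxin receptor and the known target of miR393, had 1999 reads in CK and 940 in DS (0.356, 95% interval 0.329 to 0.385) and was not called with mapped reads as scaling. RCA2 (TRINITY_DN25057_c1_g1), the activase that frees Rubisco of inhibitory sugar phosphates, had 649 and 1706 reads, a ratio of 1.99 (1.82 to 2.18) that lay just under the 2-fold threshold. Its neighbour in the same assembly cluster, the unannotated TRINITY_DN25057_c1_g3, had 142 and 362 reads (1.93, 1.59 to 2.36). Its only entry was with PC-3p-78936_58, which on RCA2 had 134 and 318 reads. Whether the same reads were counted on both transcripts was not tested. A caffeic acid O-methyltransferase of lignin and flavonoid synthesis, 7OMT, was close to even with 882 and 1015 reads (0.872, 0.796 to 0.955), as was the hypothetical protein TRINITY_DN22811_c0_g2 with 1191 and 1597 (1.02, 0.942 to 1.10). The deepest transcript that rose had no annotation: TRINITY_DN22919_c0_g2 had 93 reads in CK and 1298 in DS (10.6-fold, 8.56 to 13.2). Lower in DS by less than 2-fold were the hypothetical proteins TRINITY_DN14147_c0_g2 (517 and 361 reads) and TRINITY_DN18905_c0_g3 (423 and 314), while the uncharacterized protein ycf20 fell from 281 reads to 102 (0.275, 0.217 to 0.346).

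**Figure D2:**
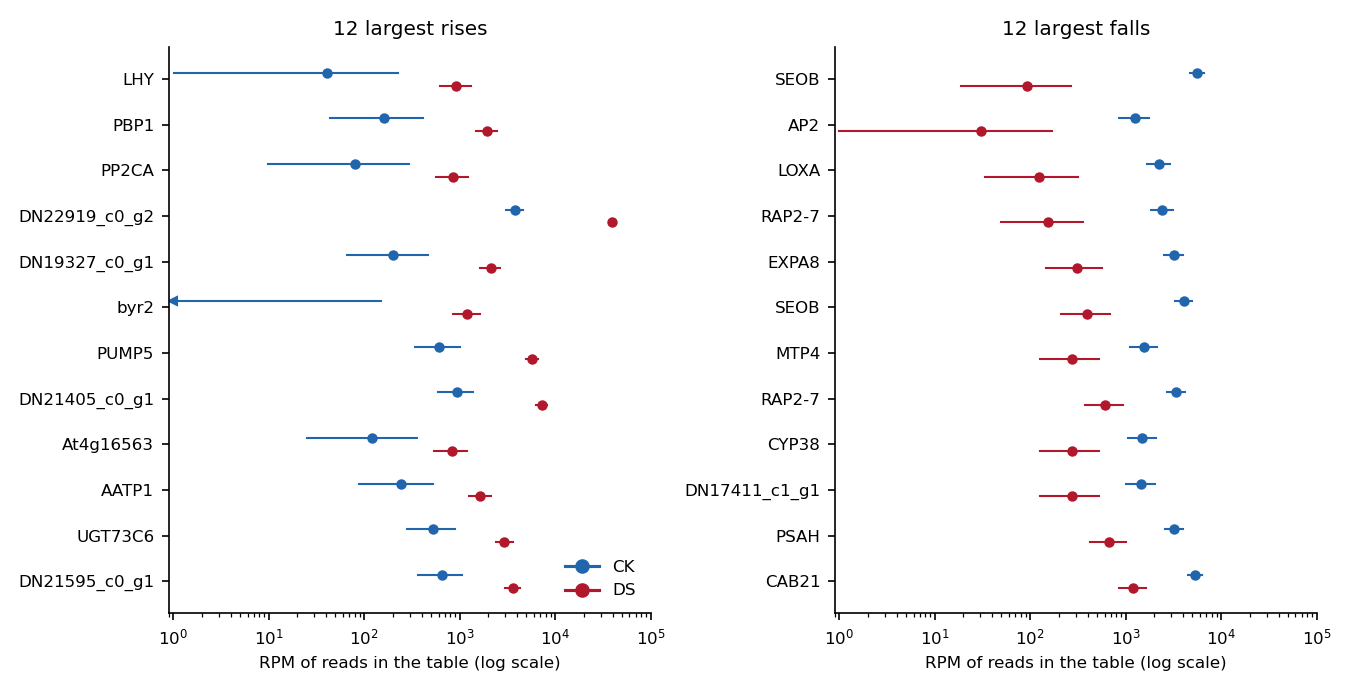
The 12 largest rises and the 12 largest falls among called transcripts with 30 or more reads are shown as RPM on a log scale, blue for CK and red for DS, with exact 95% Poisson intervals of the counts. A triangle at the left edge stands for 0 reads. The intervals of CK and DS overlap in 0 of the 24 transcripts, which largely follows from choosing called transcripts with the largest ratios.

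Abscisic acid signalling is held down by some type 2C phosphatases, which are themselves induced by the hormone. In DS 2 transcripts annotated as type 2C phosphatases were higher. Of 10 compared transcripts in the abscisic acid list 3 were higher (30% against 15.0% of all compared transcripts), all 3 under every scaling, and none was lower (11.3% of all). PP2CA had 2 reads in CK and 28 in DS (10.6-fold, 2.67 to 91.9). At2g30020, annotated as a probable phosphatase 2C without mention of the hormone, had none in CK and 17 in DS. That was at least 4.29-fold more against a floor of 3 reads in CK. Such a bound takes the DS reads as exact, and the exact interval of the ratio, which allows for the counting error of both libraries, began at 3.13-fold. AOG, a glucosyltransferase that stores abscisic acid as its inactive glucose ester, had 13 and 54 reads (3.15-fold, 1.70 to 6.29). The 7 members that were not called lay between 0.641 and 3.03, among them 5 other type 2C phosphatases and ABF2, a bZIP factor of the pathway, with 6 and 16 reads (2.02, 0.751 to 6.30). Over all 55 listed transcripts the reads summed to 107 in CK and 251 in DS (1.78-fold, 1.41 to 2.25), and the median log2 ratio of the compared members was 0.36 above that of all compared transcripts (up to 1.04 above it when only the deepest entry of each transcript was used).

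At the minimum of 10 reads, dehydration proteins had the largest share of rises and the highest median of all lists with at least 5 compared members. Of 6 compared transcripts 4 were higher (66.7% against 15.0%), 3 of them under every scaling, and none was lower. The median log2 ratio of the list lay 2.33 above that of all transcripts. With a minimum of 5 reads it was 0.95, below the 1.04 of the calcium sensor list. Over all 19 listed transcripts the reads summed to 48 in CK and 160 in DS (2.53-fold, 1.82 to 3.56). Without the deepest member, dehydrin b, that ratio was 1.6. Dehydrin b (TRINITY_DN19327_c0_g1), a hydrophilic protein that protects membranes and enzymes when water is lost, rose from 5 reads to 69 (10.5-fold, 4.27 to 33.2). An early light inducible protein (TRINITY_DN23929_c0_g1), a pigment-binding protein of stressed thylakoids, had 1 and 22 reads (16.7-fold, 2.69 to 688), ERD7 had 0 and 12 (at least 3.03-fold, interval from 2.11), and COR413IM2, a cold-regulated protein of the chloroplast envelope, had 2 and 12 (4.55-fold, 1.01 to 41.8). The exceptions were RD21A, a cysteine protease of drought and senescence, with 16 and 18 reads, and ERD4 with 8 and 4, neither of them called. Outside the list, and singled out after its values were seen, CAS15A (TRINITY_DN17256_c0_g1), named for cold acclimation in Medicago, rose from 21 reads to 72 (2.60-fold, 1.58 to 4.45), and SAP3, a stress-associated zinc finger protein, from 9 to 37 (3.11-fold, 1.48 to 7.34).

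Several protein kinases had more reads in DS. In the list of other protein kinases and phosphatases 5 of 15 compared were higher (33.3% against 15.0% of all), 4 under every scaling. None was lower (11.3% of all), and the median log2 ratio was 0.84 above that of all transcripts (0.26 with a minimum of 5 reads). The largest difference was in byr2 (TRINITY_DN15960_c0_g1), annotated as a mitogen-activated protein kinase kinase kinase, with 0 reads in CK and 39 in DS, at least 9.85-fold more (interval from 7.64). CIPK4 had 3 and 16 reads (4.04-fold, 1.16 to 21.6) and CIPK6 22 and 60 (2.07-fold, 1.25 to 3.54, lost with the median of ratios). CIPK kinases are switched on by calcineurin B-like calcium sensors, and CIPK25 with 38 and 100 reads (1.99, 1.36 to 2.98) and CIPK11 with 17 and 38 (1.69, 0.933 to 3.20) were not called. The cold-responsive kinase CRK2 had 0 and 11 reads (at least 2.78-fold, interval from 1.90), and rio2, a kinase of ribosome maturation in yeast, 6 and 26 (3.28-fold, 1.32 to 9.75). Among 12 compared receptor-like kinases 2 were higher (16.7%, near the share of all), both under every scaling, and none was lower. These were CRK2, which is counted in both lists, and GLR3.6, with 3 and 18 reads (4.55-fold, 1.33 to 24.1). GLR3.6 is annotated as a glutamate receptor-like channel that the word search took in. A second channel of that family outside the list, GLR2.9, had 9 and 46 (3.87-fold, 1.87 to 9.0).

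Among 7 compared calcium sensors and pumps 2 rose (28.6% against 15.0% of all) and 1 fell (14.3% against 11.3%), each under every scaling. PBP1, a small calcium-binding protein that interacts with the kinase PINOID, rose from 4 reads to 63 (11.9-fold, 4.44 to 45.1), and calmodulin (TRINITY_DN17467_c0_g4) from 3 to 23 (5.81-fold, 1.75 to 30.2). ACA12, a calcium pump of the plasma membrane, fell from 119 reads to 54 (0.344, 0.245 to 0.478). The pump held most of the CK reads of the list, so that the summed reads stood at 1.06 times CK (0.870 to 1.30) with it and at 2.58 times without it.

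**Figure D3:**
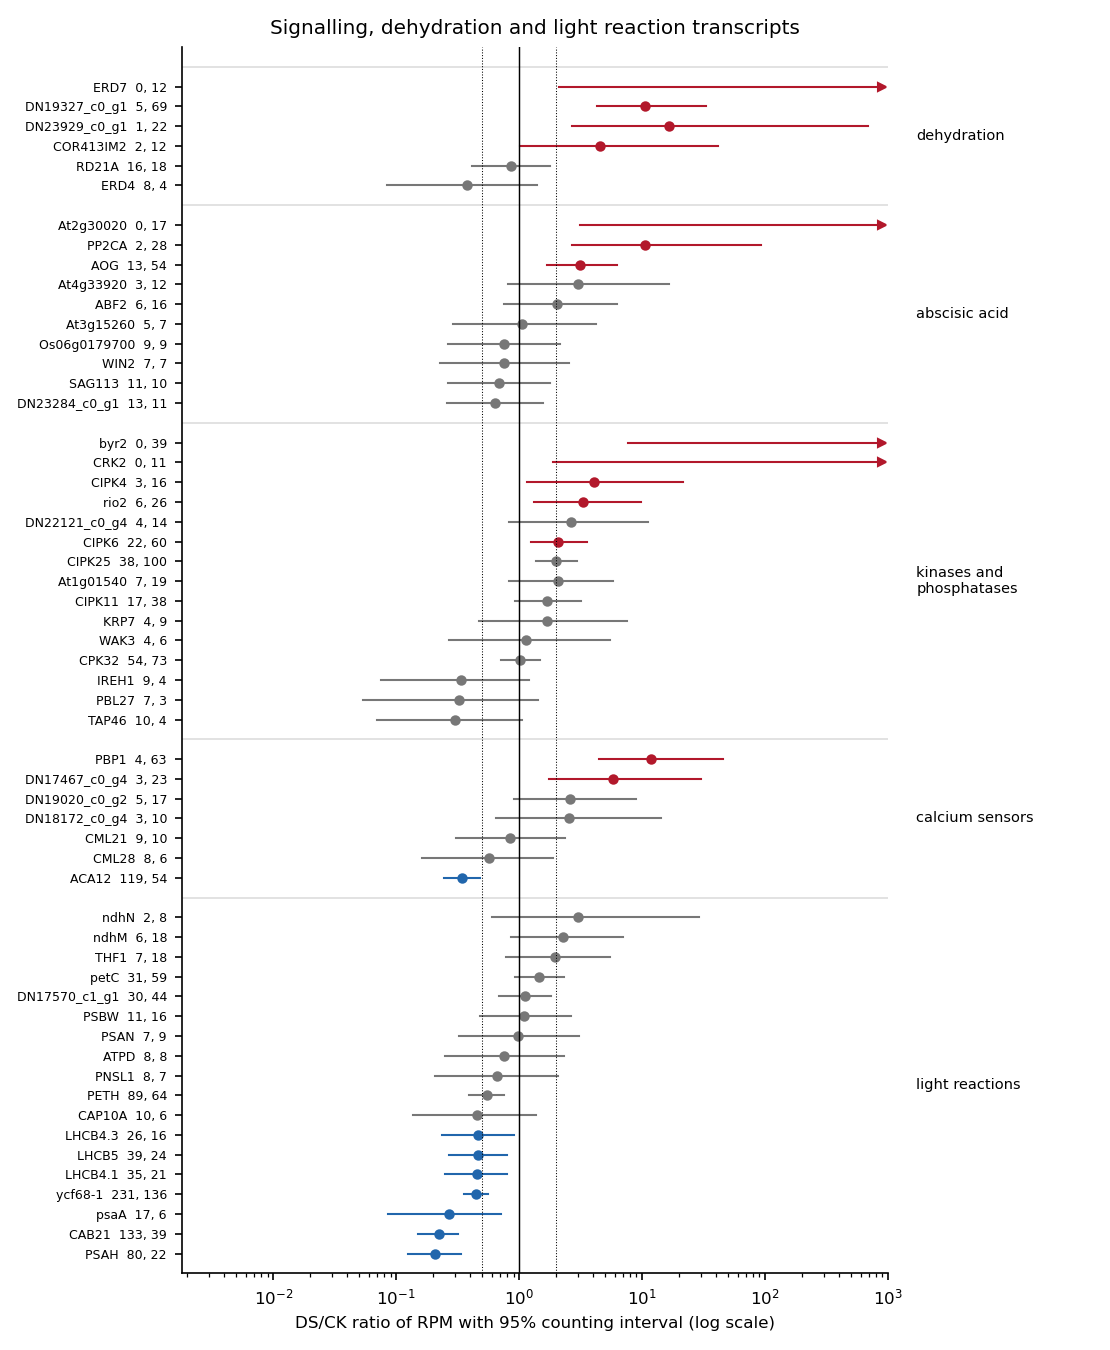
For every compared member of 5 lists the DS/CK ratio of RPM is plotted on a log scale with its exact 95% interval, and the reads in CK and DS stand after each name. Red marks higher and blue lower transcripts, grey those not called, arrows a library with 0 reads, and dotted lines a 2-fold difference. In the abscisic acid, dehydration and kinase lists calls lie only to the right, and in the light reaction list only to the left.

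The light reactions of photosynthesis went the other way. Of 18 compared transcripts 7 were lower and none higher (38.9% lower against 11.3% of all compared transcripts), and the median log2 ratio was 0.81 below that of all transcripts. The depth of this fall rests on the scaling, since only 2 of the 7, CAB21 and PSAH, were lower under every scaling, and with mapped reads 3 members were higher. CAB21, an antenna protein that binds chlorophylls a and b, had 133 reads in CK and 39 in DS (0.222, 0.151 to 0.320), and PSAH of photosystem I had 80 and 22 (0.208, 0.124 to 0.337). A transcript annotated as the chloroplast ATP synthase subunit beta had 231 and 136 reads (0.446, 0.358 to 0.554). Its symbol, ycf68-1, is a different name, so its identity is uncertain. The minor antenna proteins LHCB5 (39 and 24 reads), LHCB4.1 (35 and 21) and LHCB4.3 (26 and 16) lay close together at 0.455 to 0.466. Other members of electron transport were not called: PETH, the ferredoxin-NADP reductase, had 89 and 64 reads (0.545, 0.389 to 0.760), petC of the cytochrome b6-f complex 31 and 59 (1.44, 0.918 to 2.30), and the NDH subunits ndhM and ndhN 6 and 18 and 2 and 8.

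Transcripts of photosynthesis that the word search had missed fell too, and are named after their values were seen. AB80, also an antenna protein, had 26 and 15 reads (0.437, 0.215 to 0.857), PPD4, a PsbP domain protein of the thylakoid lumen, 11 and 4 (0.276, 0.0640 to 0.930), and CP12-2, which ties up Calvin cycle enzymes in the dark, 47 and 27 (0.435, 0.261 to 0.713). All 3 of these transcripts were lower by the table totals and the median of ratios but not under the other two scalings. A second and deeper CP12-2 transcript, TRINITY_DN14133_c0_g1, had 118 and 126 reads (0.809, 0.624 to 1.05) and was not called. In the list of Rubisco, the Calvin cycle and photorespiration, 1 of 12 compared transcripts was lower (8.33% against 11.3%) and none higher. That call did not hold under every scaling, and with mapped reads 3 members were higher and none lower. The lower one was GDCST, the aminomethyltransferase of the glycine cleavage system, with 10 and 2 reads (0.152, 0.0161 to 0.711). The summed reads of that list nevertheless stood at 1.79 times CK (1.65 to 1.94), and at 1.20 times without RCA2. Of 8 compared transcripts of pigment metabolism 1 was higher, under every scaling, and 1 lower, not under every scaling. These were 12.5% each, near the shares of all compared transcripts. CA2, a beta-carotene hydroxylase that makes zeaxanthin, had 0 and 18 reads (at least 4.55-fold more, interval from 3.33), whereas CHLD, a magnesium chelatase subunit of chlorophyll synthesis, had 15 and 6 (0.303, 0.0963 to 0.827, not lower with mapped reads or without scaling).

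Chaperones had calls in both directions at shares near those of all compared transcripts, and the list as a whole stayed level. Of 40 compared transcripts 6 were higher (15.0%, the same share as among all transcripts) and 5 lower (12.5% against 11.3%). The median lay 0.10 below that of all transcripts. The 6 higher members had 0 to 2 reads in CK, so they reached the minimum of 10 reads through their DS reads. All 6 higher members held under every scaling, and 3 of the lower ones, CYP38, BIP4 and CPN60B4, did so. Those that rose were the HSP90-type protein HSP83A and a DnaJ-class co-chaperone (TRINITY_DN13062_c0_g1), both with 0 reads in CK and 20 in DS (at least 5.05-fold, interval from 3.74), the HSP70 proteins HSC-2 (0 and 17) and HSP70-16 (0 and 12), the heat shock factor HSF24 (1 and 12) and a second DnaJ homolog (TRINITY_DN24211_c0_g3, 2 and 16). Those that fell carry annotations or symbols of proteins of the endoplasmic reticulum or the chloroplast. BIP4, an HSP70 of the endoplasmic reticulum, had 17 and 4 reads (0.178, 0.0436 to 0.547), and the endoplasmin HSP90 had 12 and 4 (0.253, 0.0594 to 0.833). MED37F, a luminal-binding protein outside the list that was named after its values were seen, had 17 and 7 (0.312, 0.109 to 0.792). CYP38, a chloroplast isomerase needed to assemble photosystem II, had 37 and 9 reads (0.184, 0.0782 to 0.389), and the chaperonins CPN20 and CPN60B4 had 15 and 7 and 10 and 0. This division by compartment was seen in the values and was not tested, and HSP90-5, CLPB3 and the stromal HSP70 of the chloroplast and the calreticulins were not called.

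**Figure D4:**
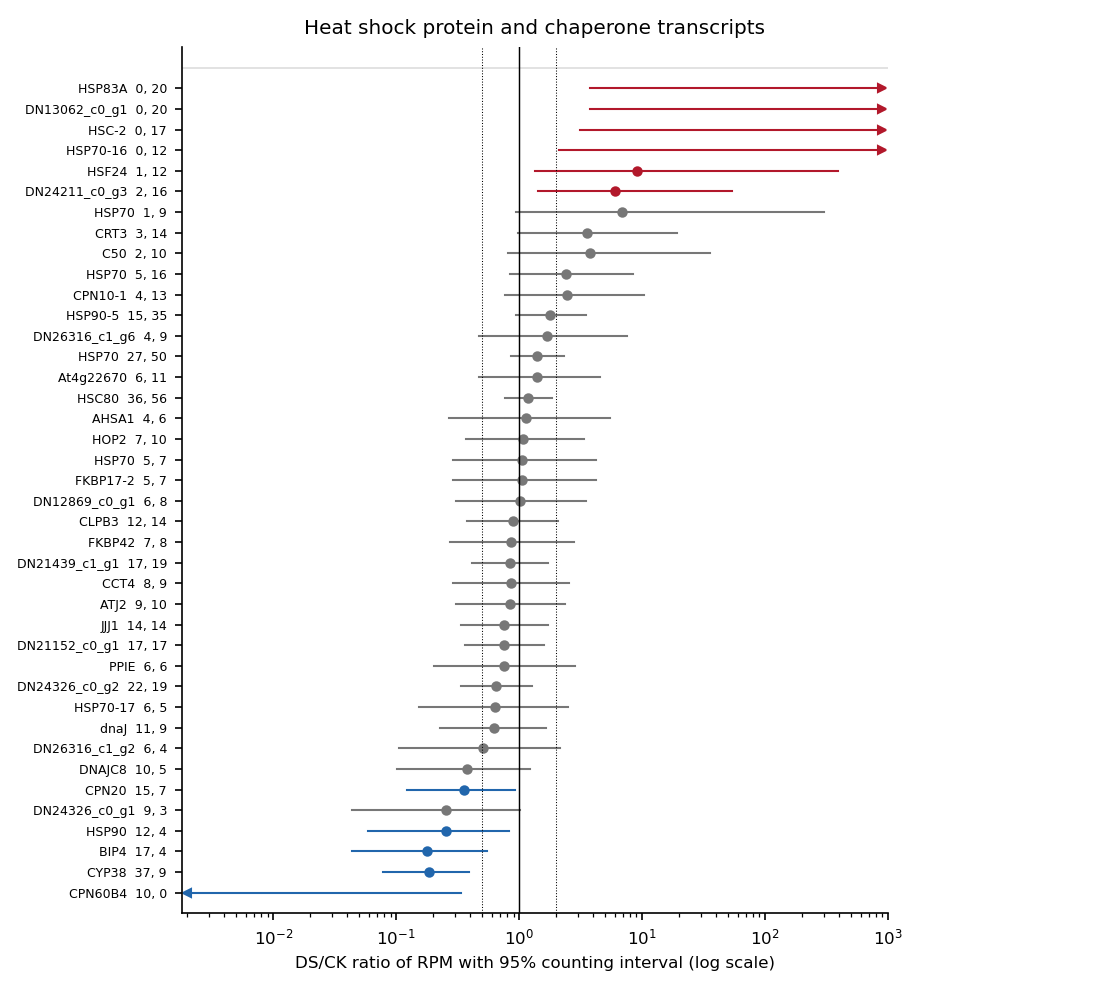
The DS/CK ratio of RPM with its exact 95% interval is shown on a log scale for the 40 compared chaperone transcripts, with reads in CK and DS after each name. The 6 higher ones (red) had 0 to 2 reads in CK, the 5 lower ones (blue) 10 to 37, and the other 29 (grey) were not called.

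Glycosyltransferases were among the groups with most calls. Of 32 compared cytochrome P450s and glycosyltransferases 10 were higher (31.2% against 15.0%), all under every scaling. Lower were 2 (6.25% against 11.3%), neither under every scaling. Their summed reads went from 532 to 1130 (1.61-fold, 1.45 to 1.79). UGT73B4, which attaches glucose to flavonoids, rose from 47 reads to 168 (2.71-fold, 1.95 to 3.83), UGT73C6 from 13 to 96 (5.6-fold, 3.12 to 10.9) and the isoflavone glucosyltransferase GmIF7GT1 from 20 to 68 (2.58-fold, 1.55 to 4.48). Smaller counts rose in GT7 (4 and 27 reads), GT5 (4 and 23), UGT75L6 (2 and 15), TOGT1 (16 and 51), the saponin rhamnosyltransferase GmSGT3 (0 and 13) and At5g04500 (6 and 22), with AOG of the abscisic acid list as the last of the 10. The 2 that fell were the (iso)flavonoid glycosyltransferase GmSGT2 (TRINITY_DN25456_c0_g6), with 58 and 28 reads (0.366, 0.224 to 0.584, not lower with mapped reads), and the P450 CYP75B2, with 12 and 5 (0.316, 0.0871 to 0.963).

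Upstream of these sugar transfers, chalcone synthase, the first enzyme of the flavonoid branch, was higher in both transcripts compared: CHS had 15 and 45 reads (2.27-fold, 1.24 to 4.39) and CHS5 1 and 10 (7.58-fold, 1.08 to 329). In the phenylpropanoid list as a whole 4 of 11 compared transcripts were higher (36.4% against 15.0%), all under every scaling. Lower was 1 (9.09% against 11.3%), not under every scaling. CAD2, a cinnamyl alcohol dehydrogenase of lignin synthesis, had 6 and 23 reads (2.90-fold, 1.15 to 8.72). PAL17.1, phenylalanine ammonia-lyase at the head of the pathway, had 4 and 6 and was not called. The sum of the list was close to even (0.967, 0.893 to 1.05) because 7OMT held most of its reads, and stood at 1.36 without it.

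Nitrogen and sulfur assimilation showed opposite calls in related enzymes. Of 15 compared transcripts 5 were higher (33.3% against 15.0% of all), all under every scaling. Lower were 2 (13.3% against 11.3%), of which 1 held under every scaling. APR3, the reductase that commits activated sulfate to cysteine synthesis, rose from 17 reads to 89 (3.97-fold, 2.34 to 7.11). The plastid glutamine synthetase GS2, which reassimilates photorespiratory ammonium, rose from 12 to 49 (3.09-fold, 1.62 to 6.39), whereas a cytosolic form annotated as the nodule isozyme, GS1, had 16 and 7 (0.331, 0.115 to 0.852, not lower with mapped reads or without scaling). A further cytosolic glutamine synthetase, TRINITY_DN20323_c1_g1, had 56 and 64 reads (0.866, 0.595 to 1.26). SAMDC, the decarboxylase that feeds polyamine synthesis, had 3 and 20 reads (5.05-fold, 1.5 to 26.5), the cysteine desulfurase NIFS1 4 and 18 and the shikimate pathway enzyme DHAPS-1 1 and 11. CAS2, a cyanoalanine and cysteine synthase, fell from 18 reads to 5 (0.210, 0.0611 to 0.588).

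Starch and sugar metabolism had few calls, 2 higher and 2 lower of 22 compared, all under every scaling. These were 9.09% each, against 15.0% higher and 11.3% lower among all compared transcripts. BAM3, the plastid beta-amylase that releases maltose from starch, had 3 and 21 reads (5.30-fold, 1.58 to 27.8), and a fructose-bisphosphate aldolase (TRINITY_DN24512_c1_g1) 14 and 98 (5.30-fold, 3.02 to 10.1). The cytosolic enzymes that act further down on maltose and the glucans made from it, DPE2 (14 and 1 reads; 0.0541, 0.00128 to 0.356) and an alpha-glucan phosphorylase of the H type (TRINITY_DN25903_c1_g1, 14 and 3; 0.162, 0.0299 to 0.582), fell.

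PUMP5, a carrier of the mitochondrial inner membrane related to uncoupling proteins, was the transporter with the largest rise, from 15 reads to 187 (9.45-fold, 5.58 to 17.2), spread over 5 entries. Of 24 compared transporters 4 were higher (16.7% against 15.0% of all) and 2 lower (8.33% against 11.3%), each under every scaling. Both shares were near those of all compared transcripts. NPF6.4, of the nitrate and peptide transporter family, had 30 and 108 reads (2.73-fold, 1.81 to 4.24), ABCI8, which assembles iron-sulfur clusters in plastids, 9 and 35 (2.95-fold, 1.39 to 6.97), and ABCC14 1 and 10. Other ABC transporters went down, ABCC3 from 11 reads to 1 (0.0689, 0.00160 to 0.474) and ABCG36 from 11 to 2 (0.138, 0.0148 to 0.631). Outside the list MTP4, a metal tolerance protein, fell from 39 reads to 9 (0.175, 0.0745 to 0.367). The aquaporin list matched 5 transcripts, 1 of them the lipid kinase PIP5K2, none of which reached 10 reads, and they summed to 9 reads in CK and 6 in DS.

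Several regulators of transcription had only 1 read in CK, so they reached the minimum of 10 reads over both libraries through their DS reads. LHY, a MYB-type factor of the morning clock, had 1 read in CK and 30 in DS (22.7-fold, 3.78 to 927), and a MYB-like factor (TRINITY_DN25143_c0_g1) 1 and 26 (19.7-fold, 3.24 to 808). The same counts and ratio were found for MYC2, the bHLH factor at the centre of jasmonate responses, which was not called on its deepest entry alone. ATHB-16 (TRINITY_DN23754_c2_g1), annotated as the homeodomain factor ATHB-6, had 1 and 21 (15.9-fold, 2.56 to 658), and a NAC-like factor (TRINITY_DN25005_c1_g1) 1 and 16 (12.1-fold, 1.88 to 508). MYB44, known in Arabidopsis for abscisic acid responses, had 5 and 27 reads (4.09-fold, 1.55 to 13.6), and WRKY40 and ERF4 each had 1 and 10.

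By list, 3 of 8 compared clock and light signalling transcripts were higher (37.5% against 15.0% of all) and none lower (11.3% of all), the other members called being CONSTANS-LIKE 4 (4 and 19 reads) and a COP1-interactive protein (4 and 21). COL16, the deepest of that list (TRINITY_DN18471_c0_g1), was not called with 78 and 82 reads. The WRKY, NAC and ERF list had 3 of 7 higher (42.9%) and 2 lower (28.6%), the MYB and bHLH list 4 of 17 higher and 4 lower (23.5% each), and the list of other transcription factors 7 of 47 higher (14.9%) and 3 lower (6.38%). All calls upward in these lists held under every scaling, and of the falls 1, 2 and 3 did. The factors that fell were largely known targets of conserved miRNAs: AP2 (31 and 1 reads) and a RAP2-7 transcript (84 and 20) of miR172, the GAM1 transcripts (49 and 24, 75 and 34) of miR159 and NAC021 (34 and 16) of miR164. A second RAP2-7 transcript (TRINITY_DN22709_c0_g2, 60 and 5 reads) was listed with lja-miR167a_R+1 alone. BHLH25, with 68 and 28 reads (0.312, 0.193 to 0.491), fell as well.

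Among the 33 lists with at least 5 compared members, only ethylene and jasmonate had a larger share of falls than conserved miRNA targets. The conserved target list had 15 of 36 compared transcripts lower (41.7% against 11.3%), 7 of them under every scaling. In it none was higher by the table totals, and with mapped reads 2 were higher. This list overlaps the factor lists, and its median log2 ratio was 1.03 below that of all transcripts. AGO1, the protein that carries miRNAs to their targets and is itself a target of miR168, was counted with RNA-binding proteins and fell from 13 reads to 1 (0.0583, 0.00137 to 0.388). In the rest of that group SNRNP40, a spliceosome subunit, had 15 and 4 reads, while SRL1, annotated as splicing factor 38, had 7 and 30, and the helicases RH37 and RH31 each had 1 and 10. Of the 42 compared in it 3 were higher (7.14% against 15.0% of all), all under every scaling. Lower were 4 (9.52% against 11.3%), 2 of them under every scaling.

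Auxin transcripts had few calls, and the list matched on words or symbols of ethylene and jasmonate had more falls than rises. ARG2, placed in the auxin list only by its annotation as an auxin-induced protein, had 1 and 22 reads (16.7-fold, 2.69 to 688). ARG2 and AFB2 were the only calls among 13 compared auxin transcripts (7.69% in each direction), of which ARG2 held under every scaling. Of 9 compared in the ethylene and jasmonate list 2 were higher (22.2% against 15.0%) and 4 lower (44.4% against 11.3%), the falls all under every scaling, but 3 of these are the AP2-like transcripts named above. The other was LOXA, a 9-lipoxygenase of oxylipin synthesis, which fell from 55 reads to 4 (0.0551, 0.0145 to 0.149). The list's rises were ERF4 and a 23 kDa jasmonate-induced protein (TRINITY_DN13660_c0_g3, 18 and 50 reads; 2.10-fold, 1.21 to 3.83, lost with the median of ratios). MYC2, with 1 and 26 reads, was counted in other lists and not in this one.

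Expansins loosen walls so that cells can enlarge, and both EXPA8 transcripts fell under every scaling, TRINITY_DN17834_c0_g1 from 79 reads to 10 (0.0959, 0.0443 to 0.186) and TRINITY_DN16586_c0_g1 from 27 to 2 (0.0561, 0.00647 to 0.223). Cellulose synthase subunits were split, with CESA5 at 19 and 3 reads (0.120, 0.0227 to 0.406), CESA2 at 2 and 16 (6.06-fold, 1.43 to 54.3) and CESA3 at 5 and 8. In all 2 of 9 compared wall transcripts were higher (22.2%) and 3 lower (33.3%), each under every scaling. Tubulins were split as well, TUBA with 15 and 2 reads (0.101, 0.0112 to 0.434) and TUBB2 with 1 and 12 (9.09-fold, 1.35 to 389), and SYP121, a syntaxin of the plasma membrane, had 1 and 17 (12.9-fold, 2.02 to 538). TY3B-G, a retrotransposon protein, had 24 and 1 reads (0.0316, 0.000768 to 0.194).

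Protein synthesis and turnover had calls in both directions. Of 29 compared translation factors and tRNA ligases 4 were higher (13.8%), 3 under every scaling, and 2 lower (6.90%), neither under every scaling, with EIF5B-like CTHT_0029840 the deepest rise at 13 and 52 reads (3.03-fold, 1.63 to 6.07) and an initiation factor 4A (Os06g0701100) at 1 and 13. Of 23 ribosomal proteins 2 were higher (8.7% against 15.0% of all) and 1 lower (4.35% against 11.3%). The rises were RPL10 of the chloroplast (2 and 20 reads) and RPS1 (3 and 17), both under every scaling. The fall did not hold under every scaling. Of 23 ubiquitin ligases, F-box proteins and proteasome members 4 were higher and 4 lower (17.4% each), of which all 4 rises and 2 falls held under every scaling. The E3 ligase DURF2 had 0 and 21 reads (at least 5.30-fold more, interval from 3.95), the RING protein ATL2 1 and 11 and the U-box protein PUB14 10 and 32, while an F-box protein annotated as CPR1 (TRINITY_DN24462_c1_g4) had 33 and 13 (0.298, 0.144 to 0.582). Among 21 proteases and inhibitors 1 was higher (4.76% against 15.0% of all) and 3 lower (14.3% against 11.3%). The aspartyl protease At4g16563 rose from 3 reads to 27 under every scaling (6.82-fold, 2.10 to 35.1). A Bowman-Birk inhibitor (TRINITY_DN18313_c0_g4, 13 and 1), SCPL45 (10 and 0) and CLPR3 (20 and 11) fell, 2 of these 3 under every scaling.

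Antioxidant enzymes had few calls, with 1 of 19 compared higher (5.26%), under every scaling, and 2 lower (10.5%), 1 of them under every scaling. Lactoylglutathione lyase (TRINITY_DN20166_c1_g2), which detoxifies methylglyoxal, had 6 and 25 reads (3.16-fold, 1.26 to 9.41), and the falls were SODCC (62 and 22) and CCS (159 and 103), a superoxide dismutase and its copper chaperone, both miR398 targets. Immune receptors of the NBS-LRR type had no rise and 2 falls among 14 compared (14.3% lower against 11.3% of all). The falls were RGA1 (34 and 18 reads) and RGA3 (13 and 4), and neither held under every scaling. With mapped reads 1 member of that list was higher and none lower. STH-2, a pathogenesis-related protein, rose from 6 reads to 38 (4.80-fold, 2.01 to 13.9).

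**Figure D5:**
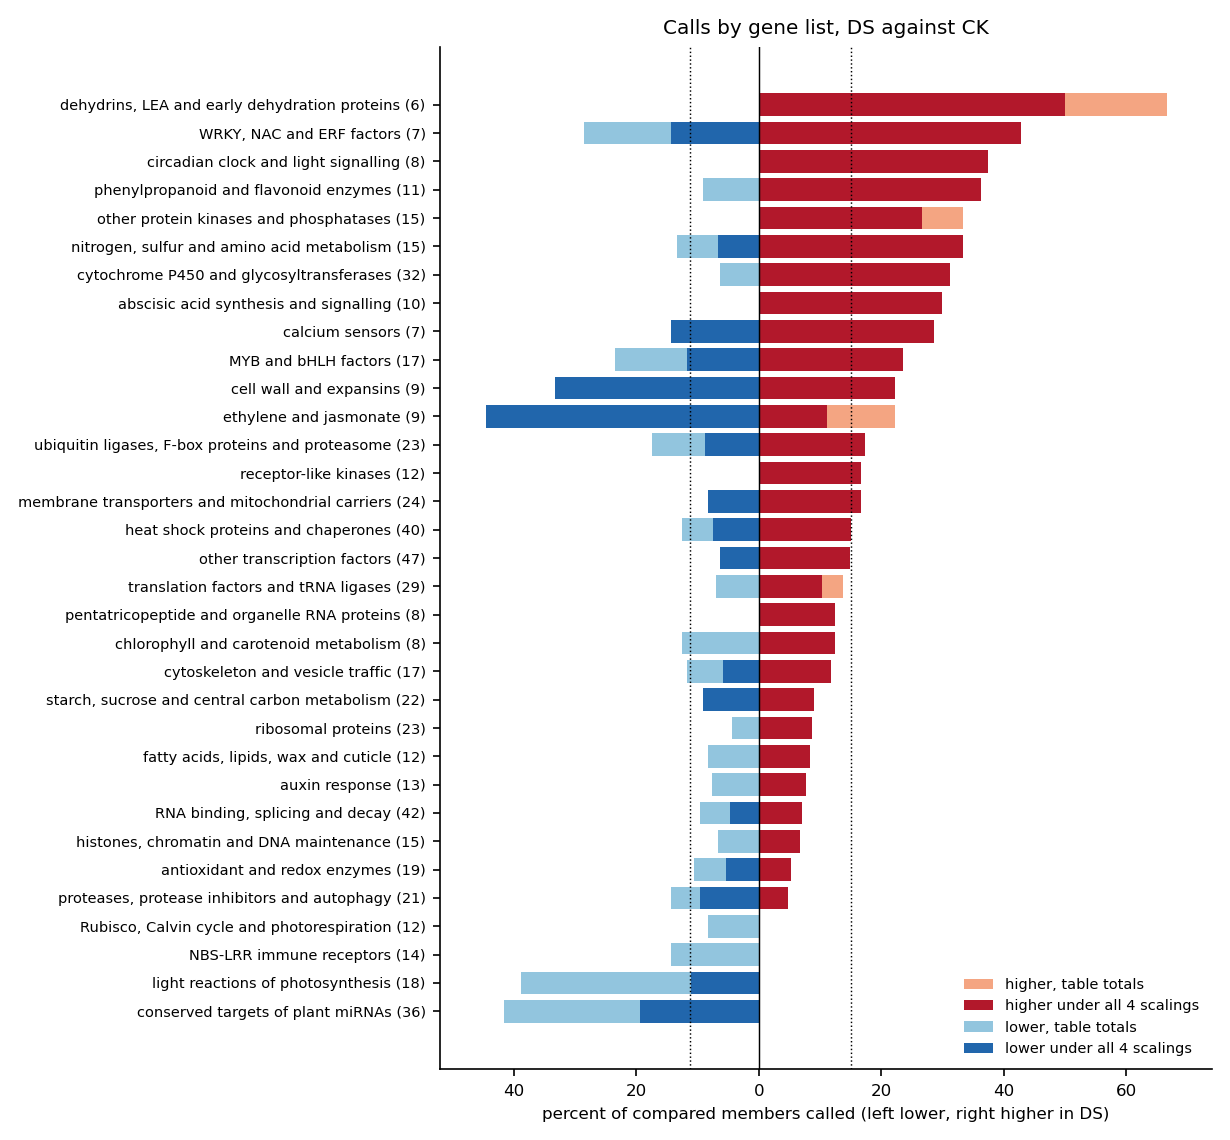
For the 33 lists with at least 5 compared members (their number in parentheses) the bars give the percent of members called lower (left) and higher (right) in DS. Dark bars count calls that held under all 4 scalings, and the dotted lines mark 11.3% and 15.0%, the shares among all 928 compared transcripts. Dehydration proteins lie farthest to the right, and conserved miRNA targets and the ethylene and jasmonate list farthest to the left. The falls of the latter list are mostly AP2-like transcripts.

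The tissue label was checked against marker transcripts. Leaf mesophyll transcripts such as RCA2, the antenna proteins and photosystem subunits were deep in both libraries, and guard cell markers were at or near 0, with 3 reads of KAT1 in DS alone. Root and nodule names held 19 reads in CK and 8 in DS, nearly all from GS1, and seed and flower names 19 and 28. The summed phloem markers differed strongly between the libraries. All 13 listed transcripts summed to 246 reads in CK and 45 in DS (0.139, 0.0985 to 0.191), and to 0.297 times CK without the deepest. The difference came from SEOB, the protein of sieve element occlusion, of which TRINITY_DN26009_c2_g2 had 139 and 3 reads (0.0164, 0.00333 to 0.0488) and TRINITY_DN22893_c0_g1 100 and 13 (0.0985, 0.0507 to 0.176). The sum without the deepest still holds TRINITY_DN22893_c0_g1. The sucrose carrier SUC2 of the same list had 3 and 7 and was not called. The listed transcripts other than these SEOB transcripts, SUC2 among them, together held few reads, with more in DS than in CK. Whether the amount of phloem in the leaf samples had a part in any other result was not tested.

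The reads of higher and lower transcripts were spread differently over the table. Higher transcripts were listed in a median of 3 entries and lower ones in 2. The deepest entry of a transcript held a median of 70.4% of its reads among the 139 higher, 91.7% among the 105 lower and 65.5% among the 684 that were not called, at median depths of 22, 24 and 18 reads. Entries in which the small RNA listed was ppe-MIR169i-p5_2ss17GT19TG numbered 2081 on 1677 transcripts, more than for any other small RNA. They held 3763 reads in CK and 7024 in DS, or 15.2% and 21.5% of the libraries, a ratio of 1.41 (1.36 to 1.47). Of these, 93 and 1298 lay on TRINITY_DN22919_c0_g2, and without it the ratio was 1.18 (1.13 to 1.23). At the other end mtr-miR393a_R+1 had 6 entries with 2025 and 967 reads (0.362, 0.335 to 0.391), nearly all on AFB2, without which the ratio was 0.888 (0.551 to 1.44). nta-miR482a_R-3_1ss19CT with 1204 and 1513 reads stood at 0.952 (0.882 to 1.03), PC-3p-78936_58 with 892 and 1547 at 1.31 (1.21 to 1.43), PC-5p-39746_142, whose deepest entry is on RCA2, with 463 and 984 at 1.61 (1.44 to 1.80) and at 0.902 (0.738 to 1.10) without RCA2, and mtr-MIR2592bj-p3_2ss12TC19AT with 553 and 511 at 0.700 (0.620 to 0.791). Whether any of these small RNAs guided the cuts was not tested.

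Among the transcripts with the largest rises 2 are annotated only as uncharacterized. TRINITY_DN21405_c0_g1 had 23 reads in CK and 236 in DS (7.77-fold, 5.06 to 12.5), and TRINITY_DN21595_c0_g1 16 and 118 (5.59-fold, 3.30 to 10.1). AATP1, an AAA-type ATPase annotated to mitochondria, rose from 6 reads to 54 (6.82-fold, 2.94 to 19.4). Of all 244 calls 151 fell in at least 1 of the 43 lists and 93 in none. Further rises outside the lists, chosen after their values were seen, were PMI1 of chloroplast movement (1 and 19 reads), TAF1 of the basal transcription machinery (1 and 19), a UV-B-induced chloroplast protein, At3g17800 (9 and 51), and a dehydrodolichyl diphosphate synthase, At5g58770 (2 and 24). Falls outside the lists included the unannotated TRINITY_DN17411_c1_g1 (36 and 9 reads), TAR1-A (156 and 53; 0.257, 0.185 to 0.354), At5g07830 (150 and 83; 0.419, 0.317 to 0.552) and TIC110, a protein of the chloroplast import channel (12 and 5; 0.316, 0.0871 to 0.963).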

How the data were processed

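Leaf degradomes of watered (CK) and drought-stressed (DS) seedlings were compared, 1 library each, grouped by their titles and treatment labels. The authors ligated 5′ adapters to uncapped poly(A) RNA, sequenced single-end reads on a HiSeq2500 and searched their own Trinity assembly for cut sites by means of ACGT101-DEG and CleaveLand4. The deposited normalized counts are RPM values, which the authors made to add up to 1000000 per library over the listed entries alone. Dividing by the smallest value above 0 gave whole reads (100% of values up to 20 reads lay within 0.1 of a read). Reads were summed per transcript over its entries. Where several small RNAs are listed on a transcript, the same read may have entered its sum repeatedly. Cleavage positions, categories and transcript lengths were not used here, so levels were not compared between genes.

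Transcripts with at least 10 reads over CK and DS were compared by the ratio of RPM with an exact conditional 95% interval. Calls needed a 2-fold ratio and an interval that excluded 1. With 1 library per condition no p-value was computed for the main calls. Log2 ratios used a pseudocount of 1 read. A fold against 0 reads was taken against a floor of 3 reads in that library. Without molecular identifiers, PCR copies cannot be removed, and intervals and floors describe counting error alone. The call rule was also run on simulated counts with known ratios, which held counting error only and no variation between replicates. Its outcome is not given here. Scripts used Python 3, numpy, pandas, scipy and matplotlib.

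The 43 gene lists were searched for by words of the annotation and by symbol. Members and lists were chosen with earlier results of these data known. Selected for naming were the 10 transcripts with the most reads, the 12 largest rises and the 12 largest falls among called transcripts with at least 30 reads, in each list up to 3 called members with the most reads in each direction (or its deepest member not called), and the 6 small RNAs with the most reads. Not every transcript so selected is mentioned in the text. Other names were added after their values were seen, among them members set beside a called relative. Alternatives were 3 other scalings, minima of 5 and 20 reads, the deepest entry of a transcript alone, identical entries counted once, a 3-fold threshold, an exact binomial rule, a pseudocount of 0.5 and leaving out the deepest transcript. The rewatered library was used only for transcripts absent from CK and DS and to decide which entries of a transcript were identical.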

Additional observations from a re-analysis of the deposited data

Results flagged for a closer look

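The library of rewatered plants, which the main comparison of DS with CK does not use, held 4 transcripts with 10 or more reads that had none in CK or DS. They were the unannotated TRINITY_DN27212_c0_g1 with 65 reads, a glycine-rich cell wall protein (TRINITY_DN22102_c0_g2) with 23, a serine carboxypeptidase-like protein (TRINITY_DN14335_c2_g4) with 20 and the carotenoid cleavage dioxygenase CCD4 (TRINITY_DN25600_c0_g1) with 14. They stood above the level of the control library, and their absence from it is limited by its depth.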

How the results depend on the processing

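Scaling changed the counts most. By the table totals 139 transcripts were higher and 105 lower, and the median was 0.09 on the log2 scale. With mapped reads there were 268 and 48 (median 0.62), and without scaling 230 and 61 (median 0.49). A minimum of 20 reads left 81 higher and 62 lower transcripts, and a minimum of 5 reads gave 162 lower ones. These counts change with the minimum because fewer or more transcripts are compared. The remaining counts stayed within 1.5 times, with 102 to 179 higher and 78 to 121 lower transcripts. An exact binomial rule with Benjamini-Hochberg adjustment, which compares 2 libraries and not 2 conditions, gave 102 and 85. No call turned direction under any alternative. With mapped reads all 139 higher and 48 of the 105 lower transcripts kept their call, with the deepest entry alone 86 and 76, and with identical entries counted once 135 and 102. Of the 161 transcripts selected for naming, 25 lost their call under the binomial rule. Among these were WRKY40, ERF4, RH37, RH31, SIGE, COR413IM2, CAD2, HTR4, RPS1, PUB14, GS1, CYP75B2, CPN20, CHLD, CLPR3, AB80, PPD4 and TIC110. Of the 161, with mapped reads 30 lost their call, without scaling 20, with the median of ratios 4, on the deepest entry alone 14 (a further 24 had under 10 reads there and were not compared) and with identical entries counted once 1. The log2 medians of the 33 lists are relative to all transcripts, so scaling cannot move them, and a pseudocount of 0.5 moved them by at most 0.16. The minimum of reads and the choice of entries moved some by more, up to 2.01 with a minimum of 20 reads. With identical entries counted once that of the dehydration list was 1.64. Low depth limits the rest: with 1 or 2 reads in a library the interval of a ratio spans more than an order of magnitude. No paired analysis was possible because each condition had 1 library.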

Other observations

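Lists not described above gave few calls. Called in each direction were 8.33% of the lipid list, 6.67% of the chromatin list and 11.8% of the cytoskeleton and traffic list. Of the organelle RNA list 12.5% were higher and none lower. Among all compared transcripts 15.0% were higher and 11.3% lower. Of 12 compared transcripts of fatty acid, lipid and wax metabolism the phospholipase At4g16820 was higher (0 and 10 reads) and the acyl-activating enzyme AAE16 lower (33 and 20). Of 15 in the chromatin list a histone with the symbol HTR4 was higher (4 and 18) and the histone deacetylase HDA6 lower (16 and 6). Neither fall held under every scaling, and both rises did. Of 8 organelle RNA proteins SIGE, a sigma factor of plastid transcription, was higher under every scaling (1 and 10). In the cytoskeleton and traffic list 2 of 17 were higher, both under every scaling, and 2 lower, 1 of them under every scaling, EXO70A1 of the exocyst with 10 and 2 reads among the latter. Osmolyte, raffinose and trehalose metabolism summed to 19 and 50 reads (1.99-fold, 1.15 to 3.58) and had 1 compared member, the proline dehydrogenase POX1 with 3 and 8, the gibberellin, cytokinin and brassinosteroid list 2 and the mitochondrial respiration list 4, in which PUMP5 held the only call.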
